A study of Mus musculus with 8 samples.

Results

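The Wnt, Fgf and Bmp ligand genes encode 3 protein families, most of whose members are secreted signals. They were examined here for H3K27me3, the trimethyl mark that Polycomb repressive complex 2 places on histone H3, in neural stem cells (NSCs) with and without the MommeD43 variant of Smchd1. The members were 48 mouse genes (19 Wnt, 20 Fgf and 9 Bmp), listed by name. Regions of the deposited H3K27me3 table that overlapped their annotated bodies plus 5 kb on each side were assigned to them, and each region was counted once. This gave 40 regions (16 Wnt, 16 Fgf and 8 Bmp) of 13585 in the table and of 11707 on the autosomes. The 8 samples were chromatin immunoprecipitation and sequencing (ChIP-seq) libraries and their controls, from primary female NSCs taken from the cortex of C57BL/6J mouse embryos. The wild type group (WT) was Smchd1GFP+/+, with 3 ChIP libraries and 1 whole cell extract library, and the MommeD43 group was Smchd1GFPMommeD43/MommeD43, with the same numbers. Both groups therefore carried a GFP tag on endogenous SMCHD1, a chromatin protein needed for X chromosome inactivation, and both were grown in medium with EGF and basic FGF. The MommeD43 change, a missense variant, was introduced into the tagged line by CRISPR/Cas9 editing, and each of the 3 libraries per genotype was prepared from its own cell line. No RNA was measured in these samples, so the H3K27me3 values do not say whether a ligand was expressed.

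Wnt proteins signal through Frizzled receptors, either by stabilising β-catenin or by routes that do not use it. Most Fgf proteins activate receptor tyrosine kinases, although the members Fgf11, Fgf12 and Fgf14 stay inside the cell and bind voltage-gated sodium channels, and Bmp proteins act through Smad transcription factors. In the embryo many of these ligands are made at signalling centres such as the cortical hem, the roof plate and the isthmus. CpG-rich promoters of developmental genes that are silent in a cell type are common targets of Polycomb, and H3K27me3 can spread from them over whole loci.

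The deposited table held 1 log2 value per region and genotype, the authors' mean over the libraries, scaled to library size. It held no value of a single library, so no replicate spread, n or p-value can be given for any difference between genotypes. Differences are MommeD43 minus WT on the log2 scale. For low values, the product of the read counts of the libraries could be recovered as a whole number, which gave the worth of 1 read. Recovered reads per library are geometric means on that scale. They gave a counting error for each difference, printed as its standard error (SE). This error covers the sampling of reads alone and leaves out the variation between cell lines, which is unknown here. Regions were made from peaks of either genotype, so a gene has a value only where at least 1 genotype had enough signal to form a peak.

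The sequence upstream of a few ligand starts is shown, for genes whose regions are described below. Bmp4 had the largest gain of the 40 regions, Fgf5 the largest gain of the Fgf family relative to regions of similar GC content and value, and Fgf18 the largest deficit relative to such regions. Fgf12 has starts in 2 regions, of which the upstream one had the lowest difference of the 40. Wnt5b was not picked for an extreme value, as its region was higher in MommeD43 like 14 of the 16 Wnt regions. Wnt7b and Wnt5a, which had larger differences, had no matched RefSeq promoter. Each sequence is the 250 bases before a RefSeq transcription start (GRCm38.p6), written 5′ to 3′ on the strand of the gene, with every CG dinucleotide in capitals.
Bmp4 (minus strand, chr14:46390670-46390919): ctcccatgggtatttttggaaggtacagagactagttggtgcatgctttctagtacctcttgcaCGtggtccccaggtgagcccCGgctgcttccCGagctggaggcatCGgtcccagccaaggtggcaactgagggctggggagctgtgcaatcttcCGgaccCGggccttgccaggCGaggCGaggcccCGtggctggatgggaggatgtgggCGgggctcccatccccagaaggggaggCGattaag
Wnt5b (minus strand, chr6:119544348-119544597): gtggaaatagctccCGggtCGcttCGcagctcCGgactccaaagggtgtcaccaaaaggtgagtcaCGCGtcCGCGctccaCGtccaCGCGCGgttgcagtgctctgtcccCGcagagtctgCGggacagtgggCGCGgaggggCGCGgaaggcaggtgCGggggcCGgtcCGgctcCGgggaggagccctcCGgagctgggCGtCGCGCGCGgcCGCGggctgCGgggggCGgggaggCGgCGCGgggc
Fgf5 (plus strand, chr5:98253934-98254183): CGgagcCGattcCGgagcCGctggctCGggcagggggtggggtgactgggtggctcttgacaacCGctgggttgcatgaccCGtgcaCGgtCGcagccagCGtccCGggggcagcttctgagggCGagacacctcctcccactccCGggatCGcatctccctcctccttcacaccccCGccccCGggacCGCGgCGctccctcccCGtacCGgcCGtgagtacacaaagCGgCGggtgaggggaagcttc
Fgf12, upstream start (minus strand, chr16:28753244-28753493): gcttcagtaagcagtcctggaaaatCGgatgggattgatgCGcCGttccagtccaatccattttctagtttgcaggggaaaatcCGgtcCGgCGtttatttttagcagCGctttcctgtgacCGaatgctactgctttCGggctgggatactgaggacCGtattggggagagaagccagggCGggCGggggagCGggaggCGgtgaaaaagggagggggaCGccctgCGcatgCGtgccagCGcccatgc
Fgf12, internal start (minus strand, chr16:28564952-28565201): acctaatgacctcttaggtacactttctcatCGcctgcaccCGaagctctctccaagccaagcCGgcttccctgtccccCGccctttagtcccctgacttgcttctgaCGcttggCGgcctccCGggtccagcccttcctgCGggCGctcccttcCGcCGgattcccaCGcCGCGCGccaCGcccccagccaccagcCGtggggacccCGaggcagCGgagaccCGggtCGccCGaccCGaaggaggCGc
Fgf18 (minus strand, chr11:33147401-33147650): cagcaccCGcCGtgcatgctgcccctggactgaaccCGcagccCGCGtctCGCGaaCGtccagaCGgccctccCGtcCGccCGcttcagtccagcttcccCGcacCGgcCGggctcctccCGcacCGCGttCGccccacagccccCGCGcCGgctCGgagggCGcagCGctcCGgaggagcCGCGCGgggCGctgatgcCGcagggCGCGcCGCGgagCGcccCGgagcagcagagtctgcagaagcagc

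The motif counted was CG, which reads the same on both strands and cannot overlap itself. The Bmp4 sequence held 11, the Wnt5b sequence 35, the Fgf5 sequence 24, the upstream Fgf12 sequence 18, the internal Fgf12 sequence 24 and the Fgf18 sequence 37. Over all 32851 promoters of the same length in the RefSeq table the median was 6, and 35.6% held at least as many as Bmp4 and 2.2% at least as many as Fgf18. Apart from that of Wnt5b, these sequences were picked for the values of their regions, and all of them say nothing of CG counts in general. Over all 40 ligand regions, Spearman's rho between the region's own CpG content (observed over expected) and the difference was 0.27, against 0.26 over the autosomal regions. Of the 42 ligand genes with a region, 32 had an entry in this table, and 34 promoters of 31 genes lay inside their regions, with a median of 20.5 CG. Not matched were Bmp2, Bmp3, Bmp7, Fgf8, Fgf15, Fgf17, Fgf20, Wnt5a, Wnt7b and Wnt10a.

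Of the 48 genes, 42 (87.5%) had a region within 5 kb and 38 (79.2%) had their annotated start inside one. Among 20780 autosomal protein-coding genes, 42.6% had a region and 29.0% had their start in one. A region was found for 18 of 19 Wnt genes, 17 of 20 Fgf genes and 7 of 9 Bmp genes. The 6 genes without one were Wnt8a, a ligand of early mesoderm; Fgf1, a ligand of all Fgf receptors; Fgf6, a muscle Fgf; Fgf23, the phosphate hormone made in bone; Bmp5; and Bmp10, a heart ligand. The nearest region lay 104478 bp away from Wnt8a, 99529 bp from Fgf1, 118914 bp from Fgf6, 65693 bp from Fgf23 and 100991 bp from Bmp5. Bmp10 fell just outside the limit, at 5774 bp, and that region holds Arhgap25. In Fgf7, Fgf10, Fgf14 and Fgf20 the outermost start in GENCODE lay outside the region. For Fgf10 and Fgf20 the RefSeq start is inside it, and for Fgf14 the start of a shorter transcript is.

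Levels can be compared between genes only per length, so they are given here in normalised counts per kilobase. The median over the 40 ligand regions was 62.4 in WT and 85.5 in MommeD43, against 36.0 and 37.0 over the other 11667 autosomal regions. The ligand regions were also longer, with a median of 18.8 kb against 10.4 kb, and 9 of them (22.5%) were over 50 kb, against 5.96% of the others. The highest WT levels were those of Wnt6 and Wnt10a, which share a region (227.6), Wnt1 and Wnt10b, which share another (215.9), and Wnt8b (203.2). Fgf9, a ligand that neurons and mesothelia make, had the highest WT level of its family (174.9), followed by Fgf8 (131.8). No Bmp region passed 70.5 in WT, the value at the start of Bmp6. In MommeD43 the start of Wnt7b (159.4) and Bmp4 (163.9) reached the level of Wnt11 (161.1), although in WT they had stood at 61.6 and 53.4 beside 120.8 for Wnt11. The lowest level of all was in a region inside Bmp6 that holds no exon, at 15.2 in WT and 14.2 in MommeD43.

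**Figure D1:**
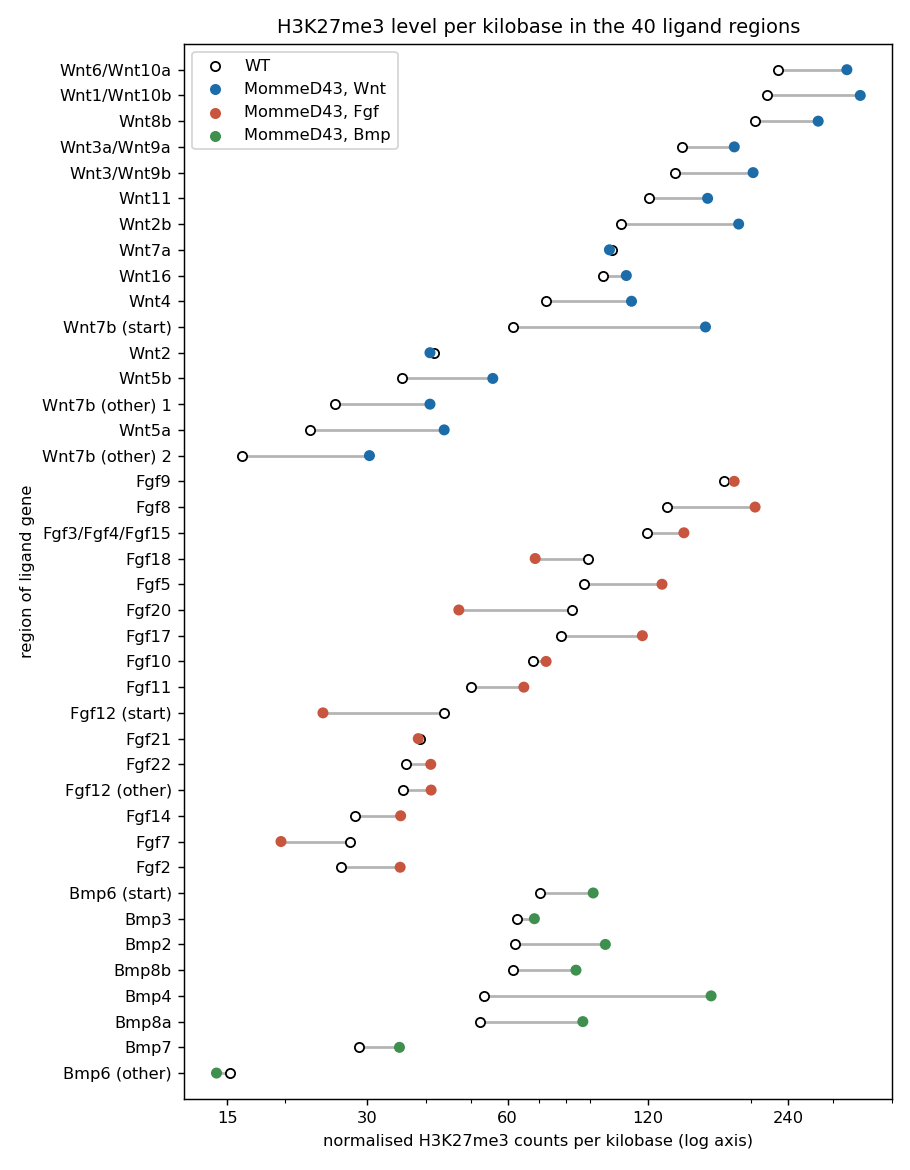
H3K27me3 level of each of the 40 ligand regions in normalised counts per kilobase (horizontal log axis), with WT as open circles and MommeD43 as circles coloured by family, each the authors' mean over libraries. Regions are ordered by WT level within a family, and names joined by a slash share a region. The widest steps upward are those of Bmp4 (53.4 to 163.9) and the start of Wnt7b (61.6 to 159.4), and the start of Fgf12, Fgf20, Fgf18 and Fgf7 take the widest steps downward.

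H3K27me3 was higher in MommeD43 in 32 of the 40 ligand regions, against 57.7% of all autosomal regions. The Wnt regions stood highest, with 14 of 16 higher and a median difference of 0.58. In the Bmp family 7 of 8 were higher with a median of 0.41, and in the Fgf family 11 of 16 were higher with a median of 0.19. The median over all 40 was 0.40, beside 0.07 over the other autosomal regions. Closer sets stood higher than that. Of other autosomal regions with a gene start, 2982 of 4390 were higher, with a median of 0.17. Of those over 50 kb, 535 of 695 were higher, with a median of 0.25. By a step of at least 1, a doubling, only the start of Wnt7b and Bmp4 were higher (2 of 40, against 2.28% of autosomal regions), and none was lower (0 of 40, against 2.93%). For 33 of the 40 the difference exceeded its 95% counting interval, as it did for 63.0% of the other autosomal regions. The paper treats this technique as poorly suited to comparing amounts of a histone mark. By immunofluorescence it found modestly less H3K27me3 in MommeD43 cells, on the inactive X chromosome and, in data not shown, over the whole nucleus. Higher and lower here refer to reads scaled by library, and the amount of the mark per cell was not measured. The zero point depends on the scaling. Setting the total over all regions equal in both genotypes lowers every difference by 0.24, which leaves 26 of 40 ligand regions higher (65.0%, against 32.9% of autosomal regions) and puts the Fgf median at -0.05. On that scaling the same 2 regions were at least 1 higher (against 1.17% of autosomal regions), and 2, those of Fgf20 and the upstream start of Fgf12, were at least 1 lower (against 5.7%).

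**Figure D2:**
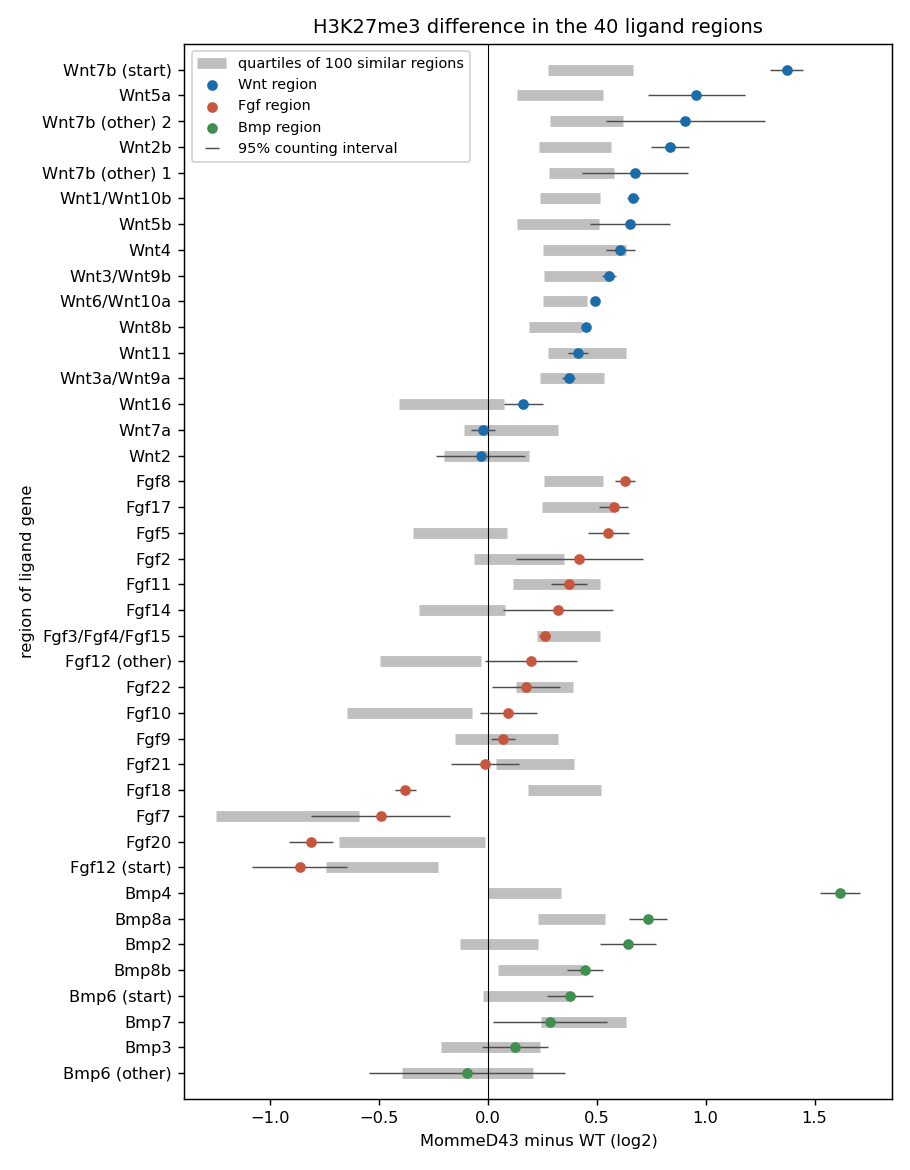
Difference between MommeD43 and WT (horizontal axis, log2) for each of the 40 ligand regions, coloured by family, with thin lines for the 95% counting interval and grey bars for the quartiles of the 100 autosomal regions nearest in GC content and value. To the right of their grey bars lie 23 regions, among them Bmp4 (1.62), the start of Wnt7b (1.37) and Fgf5 (0.55). To the left lie 4, those of Fgf18 (-0.38), Fgf20 (-0.81), Fgf21 (-0.01) and the upstream start of Fgf12 (-0.86).

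The difference between genotypes went with base composition on the autosomes. Over the 11707 autosomal regions Spearman's rho between GC content and the difference was 0.58, and over the 40 ligand regions it was 0.64. These regions share the same 2 pooled values, and the figures are descriptions. The ligand regions were richer in GC, with a median of 48.9% against 46.3%. Each ligand region was therefore also set against the 100 other autosomal regions nearest to it in GC content and mean value, and the median difference of those 100 was subtracted. On this scale 28 of 40 lay above their similar regions, where 49.8% of all autosomal regions did, and the median was 0.20 (0.21 for Wnt, 0.12 for Fgf and 0.23 for Bmp). At least 0.5 above were Bmp4, the start of Wnt7b, Fgf5, Wnt5a, Bmp2 and Fgf10 (6 of 40, against 8.52%). At least 0.5 below was Fgf18 (1 of 40, against 6.74%). With the quartiles of the similar regions as the measure, 23 of the 40 ligand regions lay above the upper one, where 25.7% of autosomal regions did, 13 lay within, and 4 lay below the lower one, where 25.3% of autosomal regions did. After this subtraction, which uses GC content, rho with CpG content was 0.44 over the ligand regions and 0.11 over the autosomal ones, again as a description.

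**Figure D3:**
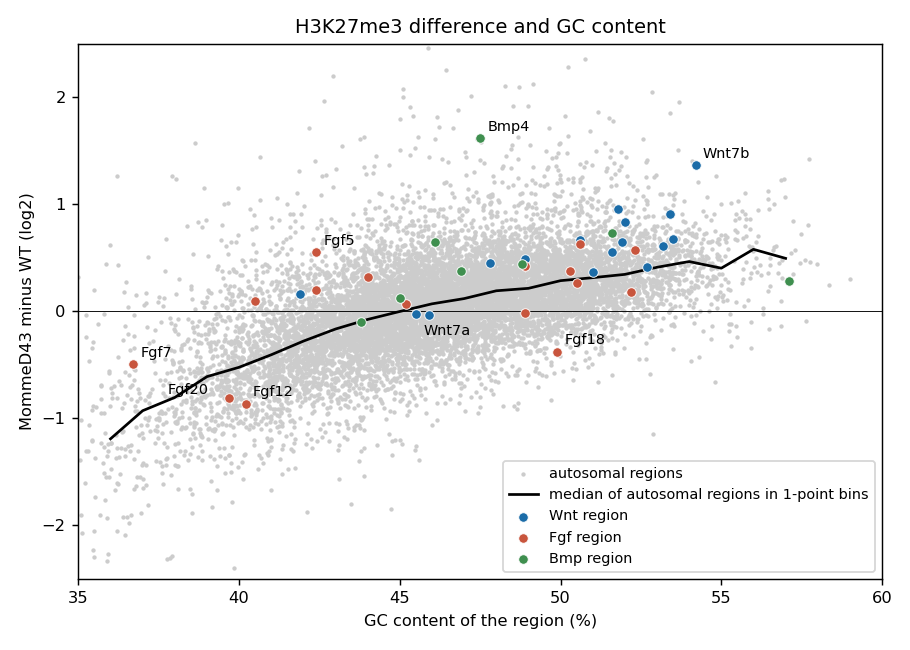
GC content of each region (horizontal axis, percent) against the difference between MommeD43 and WT (vertical axis, log2), with autosomal regions in grey, their median in bins of 1 percentage point as a black line and ligand regions coloured by family. The line rises with GC content. Bmp4 and the start of Wnt7b lie above it and Fgf18 below it, while the upstream start of Fgf12 and Fgf20, which were also lower in MommeD43, lie where GC content is near 40%. The axes leave out 66 autosomal regions.

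Among the Wnt genes, 8 shared 4 long regions in pairs. Wnt1, which maintains the midbrain and hindbrain border, and Wnt10b, a bone and fat ligand, shared 87.35 kb (chr15:98750301-98837650). That region also overlaps Arf3, Ddn, Prkag1 and Kmt2d, and its value was 14.20 in WT and 14.87 in MommeD43. The difference of 0.67 (counting SE 0.014) was larger than in 92 of the 100 similar regions. Wnt6 and Wnt10a, ligands of skin and its appendages, shared 252.9 kb with Ihh and other genes (chr1:74730651-74983600), with 15.81 in WT and 16.31 in MommeD43, a difference of 0.49. Wnt3a, the cortical hem ligand needed for the hippocampus, shared 111.0 kb with Wnt9a and with Arf1, and there the values were 13.95 and 14.32. Wnt3, needed for gastrulation, shared 95.9 kb with Wnt9b, a kidney tubule ligand, with 13.68 and 14.24. All these shared regions were higher in MommeD43, by 0.37 to 0.67, yet relative to similar regions they lay between -0.04 and 0.26. Wnt8b, a marker of the hippocampal primordium, lay in a region of 495.9 kb that also holds Pax2 (chr19:44436501-44932450), with 16.62 in WT and 17.07 in MommeD43. Its value was the fifth largest of the whole table, a rank that reflects length as well as density.

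Wnt7a and Wnt7b, the closely related ligands through which neural progenitors direct brain blood vessel growth, differed from each other. The region at the start of Wnt7b (chr15:85563651-85594450, 30.8 kb) had 10.89 in WT and 12.26 in MommeD43. The difference of 1.37 (counting SE 0.040) corresponds to 2.59-fold, was 0.89 above similar regions and exceeded 98 of the 100. It rested on a geometric mean of 581 recovered reads per library in WT and 1864 in MommeD43. Away from the start lay 2 shorter regions, and both were higher too. The first, of 8.75 kb, lay almost wholly beyond the gene and held only 64 bp of it, at the 3′ end. The second, of 5.75 kb, lay inside the gene. The first had 7.81 in WT and 8.48 in MommeD43 (0.68, and 0.24 above similar regions). The second had 6.54 and 7.45 (0.91, counting SE 0.187, and 0.43 above similar regions), on 28.4 recovered reads per library in WT. At the start of Wnt7a (chr6:91409001-91460650) the values were 12.34 and 12.32, a difference of -0.02 (counting SE 0.028). Relative to similar regions Wnt7a stood at -0.12. The median of its similar regions was 0.10 at 45.5% GC, against 0.49 at 54.2% GC for the start of Wnt7b. In WT the Wnt7a region was the denser of the pair, with 100.6 normalised counts per kilobase against 61.6 at the start of Wnt7b, and in MommeD43 it was the less dense, with 99.2 against 159.4.

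Wnt2 and Wnt2b, another pair of paralogues, also differed. Wnt2b, a ligand of the cortical hem and the rim of the eye, had 10.75 in WT and 11.59 in MommeD43, a difference of 0.84 (counting SE 0.044) that was 0.45 above similar regions. Wnt2, a lung ligand, had 8.56 and 8.53, a difference of -0.03 that lay inside its counting error (SE 0.105). Relative to similar regions Wnt2 stood at -0.02. The median of its similar regions was -0.01 at 45.9% GC, against 0.39 at 52.0% GC for Wnt2b. Wnt2 and Wnt7a were the Wnt regions with a value lower in MommeD43, and neither was outside its 95% counting interval.

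Values were also higher in MommeD43 at Wnt5a, Wnt5b, Wnt11 and Wnt4, ligands that can signal without β-catenin. Wnt5a, which directs tissue elongation and cell polarity, had 7.98 in WT and 8.93 in MommeD43 at its start (chr14:28502751-28513900, 11.15 kb). The difference was 0.96 (counting SE 0.113), 0.64 above similar regions and larger than 95 of the 100. This was a region of few reads, with 77.0 per library in WT and 185.5 in MommeD43. Wnt5b, its paralogue, had 8.61 and 9.26 (0.65, and 0.36 above similar regions). Wnt11, a ligand of heart and kidney, had 12.72 and 13.13, and Wnt4, a ligand of kidney and ovary, had 11.59 and 12.20. Relative to similar regions these stood at -0.07 and 0.18. The value of Wnt16, a bone ligand, was 10.90 in WT and 11.06 in MommeD43, 0.40 above its similar regions, whose median at 41.9% GC was -0.23. Scaling to the total turned its difference of 0.16 to -0.08.

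The Fgf8 subfamily, ligands of the isthmus and the anterior forebrain, did not move as one. Fgf8 itself (chr19:45704001-45751750, shared with Npm3 and Mgea5) had 12.62 in WT and 13.25 in MommeD43, a difference of 0.63 (counting SE 0.023). Fgf17, in a region with Dmtn and Npm2, had 11.52 and 12.10, a difference of 0.58. Both were higher than their similar regions, by 0.22 and 0.17. Fgf18, the third of the group, a ligand of cartilage, lung and brain, was the exception. Its 81.35 kb region (chr11:33068751-33150100) reached from the gene start, whose upstream sequence held 37 CG, over the whole gene and held no other protein-coding gene. The value was 12.82 in WT and 12.45 in MommeD43, a difference of -0.38 (counting SE 0.025) where similar regions had a median of 0.38. Only 1 of the 100 similar regions was lower, and Fgf18 was 0.76 below their median.

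Fgf12 and Fgf20 had the lowest differences of all 40 regions. The upstream start of Fgf12 (chr16:28749651-28760050, 10.4 kb) had 8.83 in WT and 7.97 in MommeD43, a difference of -0.86 (counting SE 0.111). A region inside the same gene (chr16:28560501-28569850, 9.35 kb) that holds 2 internal RefSeq starts, of which the upstream sequence of 1 is shown above, had 8.39 and 8.59. That difference of 0.20 (counting SE 0.107) lay inside its 95% counting interval and was -0.04 after scaling to the total. With GC contents of 40.2% and 42.4%, their similar regions had medians of -0.55 and -0.29, so the upstream region stood 0.31 below and the internal one 0.49 above. Fgf14, the other long gene of the intracellular group, had 1 region at a shorter transcript's start with 7.82 and 8.14, and Fgf11, in a region with 4 other genes, had 11.05 and 11.42.

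Fgf20, a ligand of the inner ear and kidney, had 11.00 in WT and 10.19 in MommeD43 (chr8:40274001-40298800), a difference of -0.81 (counting SE 0.052), 0.39 below its similar regions. With 50 similar regions Fgf20 was 0.24 below them, and with 200 it was 0.44 below. Fgf9, its paralogue, had 12.36 and 12.43, a difference of 0.07 that was equal to the median of its similar regions to within 0.002. Fgf7, the keratinocyte growth factor, had the lowest GC content of the 40 regions (36.7%). Its region near the 3′ end of the gene, which also overlaps Fam227b, had 7.52 and 7.02. That difference of -0.49 was nevertheless 0.43 above its similar regions, whose median was -0.92. Fgf10, the related ligand of limb and lung buds, had 9.80 and 9.89, 0.51 above similar regions. Fgf22, a brain member of the group that acts at synapses, had 9.28 and 9.46 in a region with Polrmt, 0.08 below similar regions.

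Fgf3, Fgf4 and Fgf15 lie side by side on chromosome 7 and shared 195.9 kb with Ano1 (chr7:144718701-144914650). Fgf3 patterns the inner ear, Fgf4 is a signal of the early embryo, and Fgf15 is the mouse bile acid hormone of the gut. Their common value was 14.52 in WT and 14.78 in MommeD43, a difference of 0.26 that was 0.14 below similar regions. Fgf5, a brake on hair growth, had 10.60 and 11.16 (chr5:98247201-98264950), a difference of 0.55 (counting SE 0.048). At 42.4% GC its similar regions had a median of -0.19, and it stood 0.75 above them and above 92 of the 100. Fgf2, the basic FGF that the culture medium also contains, had 7.35 and 7.77 (counting SE 0.149). Fgf21, a liver hormone in a region with Fut1 and Izumo1, had 9.37 and 9.36.

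Bmp4 had the largest difference of the ligand regions on either scale. Its 24.65 kb region (chr14:46378251-46402900) overlapped Gm15217 and held the whole Bmp4 gene, which encodes a dorsalising ligand of the neural tube and an inducer of mesoderm. The value was 10.36 in WT and 11.98 in MommeD43, a difference of 1.62 (counting SE 0.047) or 3.07-fold. Recovered reads were 403 per library in WT and 1534 in MommeD43. Every one of the 100 similar regions had a lower difference, and Bmp4 was 1.44 above their median. Bmp2, its closest paralogue and also a bone inducer, had 9.65 and 10.30 (chr2:133547601-133560550), a difference of 0.65 (counting SE 0.065) that was 0.61 above similar regions and larger than 94 of them.

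Relative to similar regions, the other Bmp genes stood lower than Bmp4 and Bmp2. Bmp8a and Bmp8b, neighbouring genes of the germ line and fat, lay in separate regions of similar length. Bmp8a had 10.79 in WT and 11.53 in MommeD43 (0.74), and Bmp8b had 11.00 and 11.45 (0.45). As these genes are closely related copies, reads may be assigned to either, and each region also holds a copy of another pair, Oxct2a and Oxct2b. Bmp6, a ligand that regulates iron uptake through hepcidin, had 10.28 and 10.65 at its start (0.38) and 6.33 and 6.24 in the region inside the gene. The second difference of -0.10 rested on 24.7 and 28.6 reads per library and lay inside its counting error (SE 0.229). Bmp3, which opposes other Bmp proteins, had 9.39 and 9.52. Bmp7, needed for kidney and eye, had 7.74 and 8.02, and its region was the only Bmp region below its similar regions, by 0.15.

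Of the 40 regions, 32 held the outermost GENCODE start of a member and 8 did not, although 4 of those 8 (Fgf10, Fgf14, Fgf20 and the internal region of Fgf12) held the start of another transcript. The median difference was 0.43 in the 32 and 0.15 in the 8, and relative to similar regions it was 0.15 and 0.43. The 8 had less GC (43.1% against 50.1%) and were shorter (8.38 kb against 30.4 kb). With only regions that held the outermost start, the Fgf median relative to similar regions was -0.002 in place of 0.12, and with regions that held the start of any protein-coding transcript of a member, 36 of the 40, it was 0.07.

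Other genes of the 3 pathways, namely receptors, secreted antagonists, modulators and targets, were counted the same way. Of 39 Wnt pathway genes 28 had a region, of 16 annotated Fgf pathway genes 7 did, and of 25 Bmp pathway genes 16 did, beside 42.6% of autosomal protein-coding genes, which gave 40, 12 and 18 regions. H3K27me3 was higher in MommeD43 in 31 of 40, 11 of 12 and 12 of 18, with median differences of 0.29, 0.15 and 0.20, beside 57.7% of all autosomal regions. These differences exceeded their 95% counting interval in 29 of 40 (72.5%), 5 of 12 (41.7%) and 14 of 18 regions (77.8%), against 63.0% of the other autosomal regions. After scaling to the total, 22 of 40, 4 of 12 and 7 of 18 were higher (32.9% of autosomal regions), with medians of 0.05, -0.10 and -0.04. Relative to similar regions the medians were 0.13, -0.08 and -0.04. By at least 1, 3 Wnt pathway regions and 1 Fgf pathway region were higher (4 of 70, against 2.28% of autosomal regions) and none was lower (against 2.93%). Scaling to the total left 2 of 70 higher (against 1.17%), both in Lgr5, and none lower (against 5.7%).

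The largest differences in these lists were in 2 regions of Lgr5, the R-spondin receptor that marks stem cells of the gut. Its values were 10.52 in WT and 11.92 in MommeD43 in one region (1.41, and 1.62 above similar regions) and 11.27 and 12.60 in the other (1.33, and 1.47 above). Spred3, an inhibitor of the Ras and MAP kinase route downstream of Fgf receptors, had 6.95 and 8.02 (1.07) in a region it shares with Ggn and Psmd8, on 37.9 recovered reads per library in WT, and a difference of 0.36 in its other region. Fzd10, a Wnt receptor, had 7.46 and 8.53 (1.06). The lowest were Id4, a Bmp target that holds NSCs back from differentiation, with 12.96 and 12.32 (-0.63), Wif1, a secreted Wnt inhibitor, with 12.62 and 12.02 (-0.59) in one region and -0.33 in its other, and Bambi, a decoy Bmp receptor, with 9.49 and 8.93 (-0.56).

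**Figure D4:**
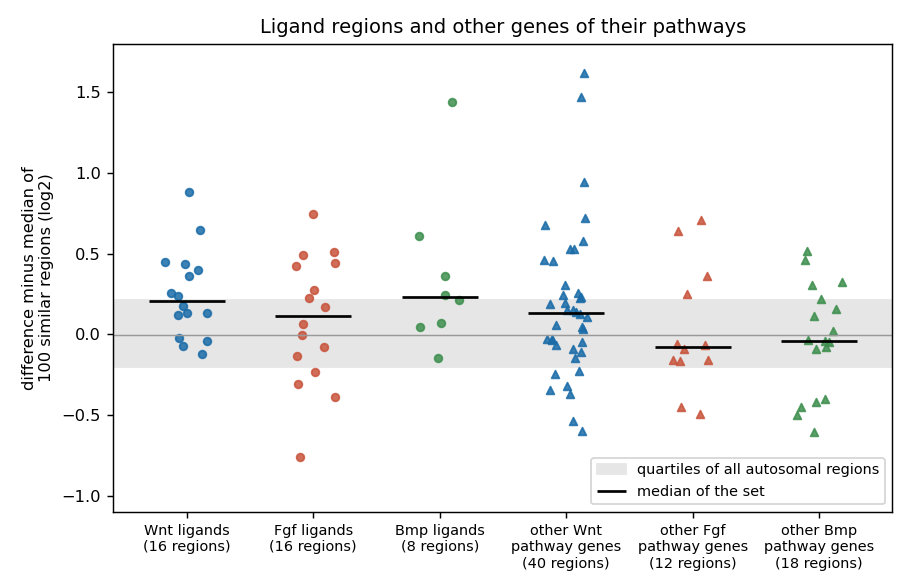
Difference between MommeD43 and WT relative to the median of 100 similar regions (vertical axis, log2) for regions of the ligand genes (circles) and of other genes of the same pathways (triangles), each point 1 region, with black lines for the median of a set and a grey band for the quartiles of all autosomal regions. Medians are 0.21, 0.12 and 0.23 for Wnt, Fgf and Bmp ligands and 0.13, -0.08 and -0.04 for the other pathway genes. Lgr5 gives the top 2 triangles (1.62 and 1.47) and Bmp4 the top circle (1.44).

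The identity of the cells could be checked only through the mark itself. Of 15 genes that NSCs use, 5 had their start in an H3K27me3 region (Sox1, Pax6, Nes, Hes1 and Hes5), and so had 4 of 5 endoderm genes, 3 of 5 mesoderm and muscle genes, 2 of 4 blood genes, 2 of 4 neuron genes and 1 of 4 pluripotency genes, where 29.0% of autosomal protein-coding genes had. A region was drawn to extend beyond its peak, so a start inside one is not itself evidence of the mark at that start. How these markers bear on the ligand values was not tested.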

How the data were processed

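Per the labels and methods, the authors trimmed reads (Trim Galore 0.4.4), aligned them to GRCm38.p6 (Bowtie2 2.3.4.1) and counted extended reads in SeqMonk, in regions around peaks called on merged replicates. The deposited values are log2 counts normalised to library size by the authors and averaged over the 3 ChIP libraries of a genotype. Region length and whole cell extract were not corrected for. The labels describe nuclease digestion and the methods shearing, so the fragmentation is uncertain. Single libraries were not analysed here.

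If a value is a mean of 3 log2 counts, the antilog of 3 times it is a product of whole counts times a constant. Of low values, 1138 of 1139 in WT (99.9%) and 681 of 684 in MommeD43 (99.6%) came within 0.1 of whole products, with 1 read worth 3.27 and 2.63 normalised counts. Reads per library are therefore geometric means, and per ligand region ranged from 24.7 to 30830 in WT and 28.6 to 52380 in MommeD43. The counting SE assumes reads spread evenly over 3 libraries. Without molecular identifiers, duplicate reads of a molecule count separately, so it covers counting error alone.

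Genes came from GENCODE mouse release 21 (GRCm38), and for Fgfr2, whose body there spans 2961 kb, from RefSeq (104.4 kb). GC content came from the GRCm38 sequence. Similar regions were the 100 autosomal non-ligand regions nearest in standardised GC content and mean value, a method checked on simulated data. The members, pathway lists and markers were chosen with earlier results of these data known. Values are given for the 3 regions of highest mean value per family, the 5 largest differences each way on both scales with at least 50 recovered reads in either genotype, shared regions, genes with several regions, the 3 largest pathway differences each way, and, so that every member is accounted for, the remaining regions. Alternatives changed the scaling, a pseudocount of 10, a minimum mean count of 50, the flank (0 or 10 kb), and the number (50 or 200), kind and definition of similar regions. The tools were pysam 0.24.0, pandas 2.3.3, numpy 2.4.6, scipy 1.17.1 and matplotlib 3.10.9 under Python 3.11.15. Coordinates count from 1.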

Additional observations from a re-analysis of the deposited data

How the results depend on the processing

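No paired analysis was possible because the deposited columns are means over libraries and carry no replicate number. For the same reason leaving out each replicate was not run, and no difference here has a replicate check. Scaling to the total of the regions, which lowers every difference by 0.24, moved the median difference to 0.15 over the ligand regions, 0.34 over the Wnt regions and -0.054 over the Fgf regions, where the sign turned, and brought 2 regions to at least 1 lower (against 5.7% of autosomal regions). With only regions holding a member start, the Fgf median relative to similar regions turned to -0.002. The other alternatives kept the sign of every family median, on both scales, and counts within 1.5 times. Some medians still moved by over 1.5 times. Scaling to the total took the Bmp median to 0.17, and scaling to the autosomal median took the Fgf median to 0.11. Relative to similar regions, matching on value per kilobase gave 0.12 over the ligand regions, 0.06 for Fgf and 0.14 for Bmp, and a flank of 10 kb gave 0.07 for Fgf and 0.14 for Bmp. Regions with the start of any member transcript, an alternative chosen after seeing the data, gave 0.07 for Fgf. Over the regions chosen by the naming rule, 295 of 347 alternative values stayed within the 95% counting interval and 52 moved further. Of all these, 3 changed sign, in the internal regions of Fgf12 and Bmp6. Over all 40 regions, scaling to the total turned 6 differences negative, those of Wnt16, Fgf9, Fgf10, Fgf22, Bmp3 and the internal Fgf12 region. Low counts limit the regions of Bmp6 and Wnt7b away from the starts, and those of Fgf2 and Fgf7.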
